A study of Danio rerio with 6 samples.

Results

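The genes described here are 4 matrix metalloproteinases of the zebrafish (Danio rerio): mmp2 (ENSDARG00000017676), mmp9 (ENSDARG00000042816), mmp13a (ENSDARG00000012395) and mmp14a (ENSDARG00000002235). They were chosen by name, as matrix-degrading proteases, with earlier results of these data known. They make up 4 of the 27726 genes in the deposited table. RNA was sequenced from cells sorted by flow cytometry for the fluorescent reporter sox10:dsRed, from larvae at 6 days post fertilization. The tested larvae were Shoc2-/- mutants made with CRISPR/Cas9 (3 libraries, called shoc2 KO here), and they were set against wild-type larvae (3 libraries, WT). Both groups carry the same reporter, in which dsRed, a red fluorescent protein, marks cells with sox10 promoter activity. The Shoc2 protein is a scaffold that helps RAS signal to the kinase ERK, and the comparison asks how transcripts of the sorted cells differ when it is lost. The labels do not say how many larvae or clutches went into a library, so p-values measure the spread between these libraries, which may be technical.

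Matrix metalloproteinases are zinc-dependent enzymes that cut proteins of the extracellular matrix. They are made as inactive zymogens and are held in check by tissue inhibitors (TIMPs). In mammals, MMP2 and MMP9 are the gelatinases, which cut denatured collagen and basement membrane collagen, MMP13 is a collagenase, and MMP14 is a membrane-anchored collagenase that also activates the MMP2 zymogen. In zebrafish, mmp9 and mmp13a are known as genes switched on in wounds, regenerating fins and inflamed tissue. Neural crest cells and their descendants move through matrix, and matrix proteases have been studied in that migration.

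Between 20088591 and 21802683 reads per library were assigned to genes. The mutated gene itself was checked first. The transcript listed as SHOC2 had 844, 798 and 673 normalized counts in shoc2 KO, against 1194, 959 and 1083 in WT. The groups did not overlap and shoc2 KO was lower, as for 5.28% of all genes tested. The transcript was still read in every mutant library. The change on the log2 scale was -0.48 (SE 0.147; Benjamini-Hochberg adjusted p = 0.636 in limma). SOX10 was present in all libraries, with 13953 to 30212 normalized counts in shoc2 KO and 8573 to 25782 in WT. Markers of cartilage, fibroblasts, glia, pigment cells and epidermis were also read in every library. In bulk samples such as these, fewer cells of a type and less RNA per cell cannot be told apart.

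None of the 4 metalloproteinase genes passed the adjusted threshold for a difference between the genotypes in the tests run. All 4 passed the filter on low values, and 0 of them had an adjusted p under 0.05 in limma, edgeR or DESeq2. An unadjusted p under 0.05 was reached by 0 of the 4 in each of these tools as well. Across the 20463 genes tested, limma called 0.00489%, edgeR 0% and DESeq2 0.757% at an adjusted p under 0.05. At an unadjusted p under 0.05 these shares were 5.8%, 6.02% and 6.42%. The 3 shoc2 KO and 3 WT values overlapped for each of the 4 genes, while they did not overlap for 10.6% of all genes tested. The genes fell into 2 kinds by how much their libraries varied: mmp2 and mmp14a were even across libraries, and mmp9 and mmp13a were uneven among the mutant libraries. Values below are normalized counts, that is, reads divided by a size factor of the library. They are not scaled by gene length, so levels are not ranked between genes.

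**Figure D1:**
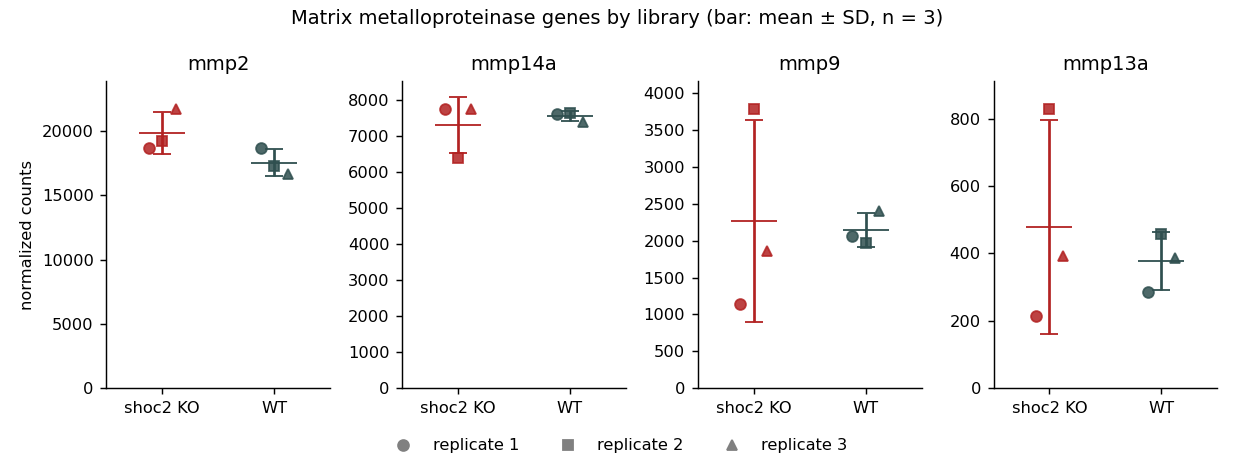
Normalized counts (vertical axis, from 0) of mmp2, mmp14a, mmp9 and mmp13a in each shoc2 KO and WT library; symbols mark the replicate number, and bars the mean ± SD of 3 libraries. The groups overlap in every panel, and shoc2 KO replicate 2 has the highest mmp9 (3786) and mmp13a (828) and the lowest mmp14a (6388) of the 6 libraries.

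The gelatinase gene mmp2 had 18638, 19191 and 21710 normalized counts in shoc2 KO replicates 1, 2 and 3, against 18712, 17273 and 16642 in WT replicates 1, 2 and 3. The highest value was in shoc2 KO replicate 3 and the lowest in WT replicate 3, and the groups overlapped because WT replicate 1 lay just above shoc2 KO replicate 1. The means were 19846 ± 1637 in shoc2 KO and 17543 ± 1061 in WT (SD, n = 3 each). The fold change was 1.13, with a 95% confidence interval from 0.940 to 1.36 (log2 fold change 0.18, SE 0.118; limma adjusted p = 0.952). A rise of more than 1.36-fold or a fall below 0.940-fold therefore lay outside this interval.

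mmp14a, the membrane-type protease, had 7731, 6388 and 7741 normalized counts in shoc2 KO, against 7592, 7634 and 7377 in WT. Replicate 2 of the mutants was the lowest library, and the other 2 mutant libraries were the highest. The means were 7287 ± 778 in shoc2 KO and 7534 ± 138 in WT (SD, n = 3 each). WT libraries differed little: the SD of their log2 values was 0.0266, and only 1.08% of tested genes had a smaller one. The fold change was 0.963, with an interval from 0.800 to 1.16 (log2 fold change -0.05, SE 0.118; limma adjusted p = 0.983). A second gene that the name table also lists as MMP14 (ENSDARG00000008388) had 6238, 4949 and 5921 normalized counts in shoc2 KO and 6524, 6247 and 5837 in WT. It too was lowest in shoc2 KO replicate 2, and it did not pass the test (log2 fold change -0.13, limma adjusted p = 0.964).

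mmp9, the other gelatinase gene, had 1148, 3786 and 1862 normalized counts in shoc2 KO replicates 1, 2 and 3, against 2064, 1970 and 2405 in WT. Both the lowest and the highest of the 6 libraries were mutant, and all 3 WT libraries lay between them. The means were 2265 ± 1364 in shoc2 KO and 2146 ± 229 in WT (SD, n = 3 each). Mutant libraries spanned 3.30-fold from lowest to highest, and WT libraries 1.22-fold. The SD of the log2 values among shoc2 KO libraries, 0.866, was larger than that of 93.9% of tested genes, and the SD among WT libraries, 0.150, was larger than that of 25.1%. The fold change on the log2 scale was -0.09 (SE 0.355; limma adjusted p = 0.992), with an interval on the linear scale from 0.537 to 1.64. This interval takes 1 variance for both groups, although the mutant libraries varied more.

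The value of mmp9 changed with the mutant library left out. Without shoc2 KO replicate 2, both remaining mutant libraries were below all 3 WT libraries, and the log2 fold change was -0.55 and limma gave it an unadjusted p of 0.0362 and an adjusted p of 0.9999. Without shoc2 KO replicate 1 it was 0.31 with an unadjusted p of 0.291. With all libraries, edgeR and DESeq2 gave log2 fold changes of 0.07 each, so even the sign depended on the tool.

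mmp13a, the collagenase gene, had 213, 828 and 392 normalized counts in shoc2 KO, against 287, 457 and 385 in WT. As for mmp9, the lowest library was shoc2 KO replicate 1 and the highest was shoc2 KO replicate 2. The means were 478 ± 317 in shoc2 KO and 376 ± 85.6 in WT (SD, n = 3 each), and the mutant libraries spanned 3.89-fold against 1.60-fold in WT. The log2 fold change was 0.15 (SE 0.425; limma adjusted p = 0.989), and its interval on the linear scale ran from 0.570 to 2.16. A rise of up to 2.16-fold therefore lay inside the interval. The log2 fold change turned to -0.35 without shoc2 KO replicate 2 and to -0.03 without WT replicate 1, and was 0.62 without shoc2 KO replicate 1.

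**Figure D2:**
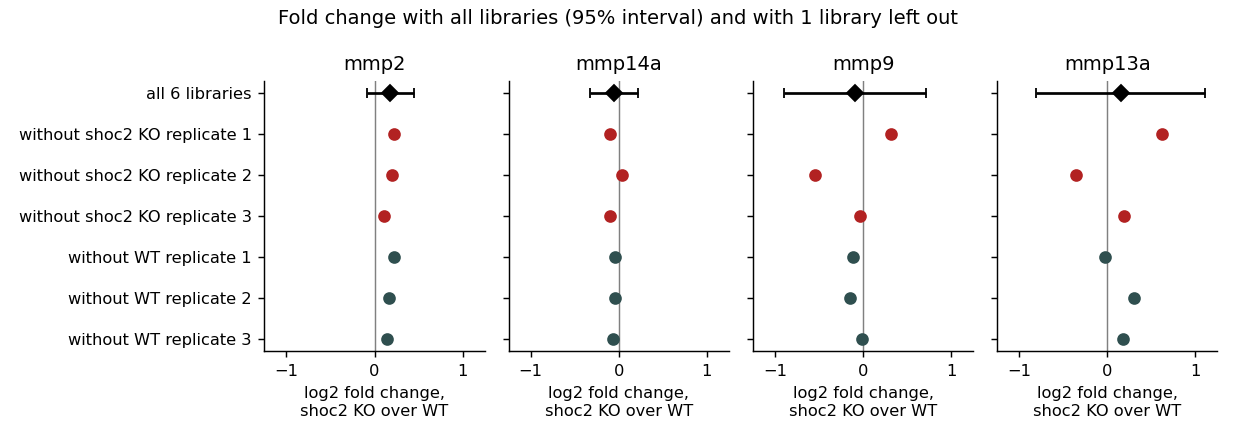
Log2 fold change (horizontal axis, shoc2 KO over WT) of each gene with all 6 libraries, drawn as a diamond with its 95% confidence interval, and with 1 library left out, drawn as points. For mmp2 and mmp14a the points stay near the value with all libraries, while for mmp9 they run from -0.55 to 0.31 and for mmp13a from -0.35 to 0.62.

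Pairs of genes were also compared within each library, where the size factor plays almost no part. The log2 ratio of mmp14a to mmp2, the activator and the zymogen it acts on in mammals, was -1.27, -1.59 and -1.49 in shoc2 KO and -1.30, -1.18 and -1.17 in WT. It averaged -1.45 ± 0.162 in shoc2 KO and -1.22 ± 0.0725 in WT (SD, n = 3 each), a difference of -0.23 with an exact two-sided permutation p of 0.2, where 3 against 3 libraries cannot go below 0.1. The ratio overlapped between the groups because WT replicate 1 lay below shoc2 KO replicate 1. For mmp13a to mmp9 the log2 ratio was -2.43, -2.19 and -2.24 in shoc2 KO and -2.84, -2.11 and -2.64 in WT. The difference of 0.24 had an exact two-sided permutation p of 0.4. Among the 3 mutant libraries, where each of the 2 genes spanned more than 3-fold, their ratio had an SD of 0.123 on the log2 scale, against 0.381 in WT. Over all 6 libraries the Pearson correlation of mmp9 and mmp13a on log2 values was 0.90 and the Spearman correlation 0.54, with no test. Those of mmp9 and mmp14a were -0.85 and -0.94, and those of mmp13a and mmp14a were -0.83 and -0.37. The Pearson correlations of mmp2 were -0.07 with mmp9, 0.05 with mmp13a and 0.02 with mmp14a.

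In shoc2 KO replicate 2, mmp9 was 2.03-fold and mmp13a 2.11-fold above the next mutant library. After these values were seen, genes at least 2-fold above both other libraries of their group were counted in each library. In shoc2 KO replicate 2 they numbered 417, or 2.04% of genes tested, including mmp9 and mmp13a, and in the other 5 libraries the share ran from 1.03% to 2.16% and included none of the 4 genes. Metalloproteinases are made by leukocytes and epidermis as well as by connective tissue, so markers of these cells were read in the same libraries. The 3 general leukocyte genes (ptprc, CORO1A and LCP1, all read in every library) summed to 874, 2038 and 1366 normalized counts in shoc2 KO and to 1357, 1487 and 2613 in WT. Among the mutants this sum had the same order as mmp9 and mmp13a, lowest in replicate 1 and highest in replicate 2. The highest sum of all was in WT replicate 3. There mmp9 stood at 2405, the highest WT value and below only shoc2 KO replicate 2. In the same library mmp13a stood at 385, between the other WT libraries (287 and 457).

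Macrophage genes (13 genes, of which 8 passed the filter) summed to between 610 and 1328 normalized counts in shoc2 KO and between 878 and 1545 in WT. The 4 neutrophil genes (lyz, the metalloproteinase mmp25b and a pair listed as LECT2) summed to between 176 and 351 in shoc2 KO and between 346 and 670 in WT. One of the pair, LECT2 under ENSDARG00000090889, singled out after its values were seen, had 27.1, 51.3 and 55.0 normalized counts in shoc2 KO against 227, 145 and 358 in WT (log2 fold change -2.39; adjusted p = 0.209 in limma and 2.2e-06 in DESeq2). The other 3 neutrophil genes summed to 149, 299.7 and 232 in shoc2 KO and to 151, 202 and 312 in WT. The 4 epidermal genes (krt4, krt5, cdh1 and epcam) summed to 40748, 60639 and 35303 normalized counts in shoc2 KO and to 41386, 130968 and 103489 in WT. Replicate 2 was thus the highest mutant library in each of these leukocyte and epidermal sums, and WT libraries had the highest value of each.

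Markers of connective tissue and of the sorted lineages did not all run the same way in that library. The 4 fibroblast genes summed to 29747, 22780 and 32978 normalized counts in shoc2 KO and to 28965, 32617 and 26085 in WT, with shoc2 KO replicate 2 the lowest of the 6 libraries. The 9 cartilage and bone genes summed to 412484, 525463 and 447323 in shoc2 KO and to 301564, 218566 and 277124 in WT, with shoc2 KO replicate 2 the highest of all. For the 6 neural crest genes that library was also the highest, with sums of 27352, 45435 and 43967 in shoc2 KO against 39195, 18353 and 24978 in WT. The pair listed as SOX9 is in both this list and the cartilage and bone list, so these sums share genes. The 3 glial genes summed to 15683, 31759 and 22471 in shoc2 KO and to 41281, 14781 and 18206 in WT, and the 4 pigment genes to 19727, 12416 and 23481 in shoc2 KO and to 14330, 11680 and 12974 in WT. Replicate 2 was thus the highest mutant library for glia and the lowest for pigment cells. The part of any of these cell types in the mmp9 and mmp13a values was not tested.

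**Figure D3:**
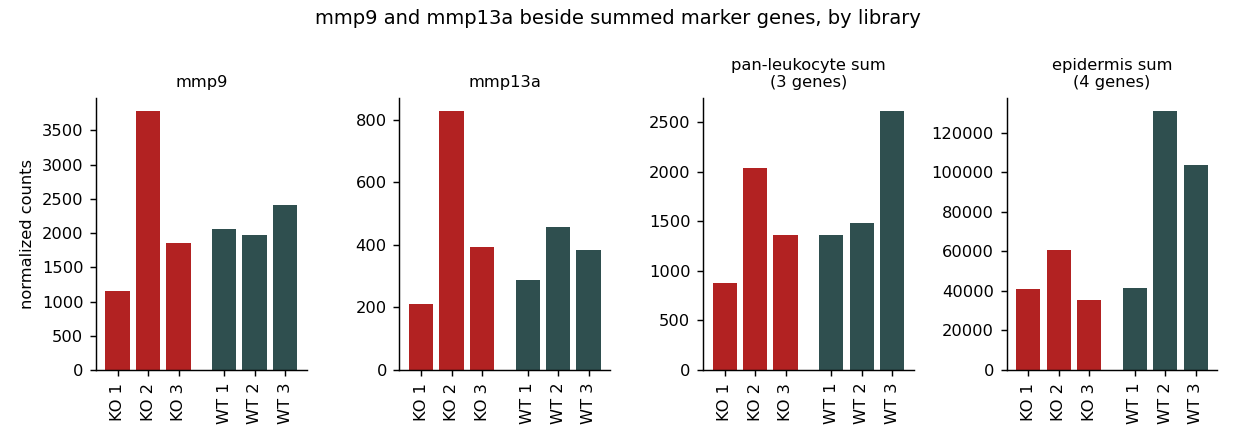
Normalized counts (bars from 0) of mmp9, mmp13a, the sum of 3 general leukocyte genes and the sum of 4 epidermal genes in the shoc2 KO and WT libraries. Replicate 2 is the highest of the mutant libraries in all 4 panels, while the highest leukocyte sum (2613) and epidermal sum (130968) belong to WT libraries.

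The genes most like each metalloproteinase were looked up among the 16698 tested genes whose mean reached 50 normalized counts, by Pearson correlation of log2 values over the 6 libraries. Since the highest of many genes was taken, these values are descriptions without a test. Closest to mmp2 were znf638 (r = 0.998) and PYGB, a glycogen phosphorylase (r = 0.993). For mmp9 they were pdlim2, a gene for a PDZ and LIM domain protein (r = 0.988), and mutyh, a DNA repair glycosylase (r = 0.977). The closest gene to mmp13a was npsn, which encodes nephrosin, another zinc metalloprotease, of the astacin family (r = 0.977). It had 254, 1092 and 587 normalized counts in shoc2 KO and 409, 710 and 614 in WT, again with the mutant replicates 1 and 2 as lowest and highest. STOML3 came next for mmp13a (r = 0.977). For mmp14a the closest were MTNR1A, listed as a melatonin receptor, and card19 (r = 0.997 each), both lowest in shoc2 KO replicate 2.

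The rest of the family was then read from the same fit. Besides the 4 genes, 20 metalloproteinase genes were matched, and 15 passed the filter on low values. Of these 15, 0 had an adjusted p under 0.05 in limma, while 2 were lower and 0 higher in shoc2 KO at an unadjusted p under 0.05, a level that 2.91% of all genes tested reached in the lower direction and 2.88% in the higher one. Without shoc2 KO replicate 2 these 2 and 0 became 3 and 1, the 1 higher gene being the one listed as MMP23B. Values did not overlap and were lower in shoc2 KO for 3 of the 15, mmp13b, mmp17b and MMP17, against 5.28% of all genes tested. The list held 0 genes above WT without overlap, against 5.29% of all genes tested. The median log2 fold change was -0.11, beside 0.0078 over all genes tested.

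The collagenase gene mmp13b (ENSDARG00000100794), the paralog of mmp13a, stood farthest from its WT level. It had 42.5, 37.0 and 32.6 normalized counts in shoc2 KO, against 207, 113 and 162 in WT. Every mutant library was below every WT library. In limma the log2 fold change was -2.04 (SE 0.30), the unadjusted p 8.16e-05 and the adjusted p 0.152, which did not pass the threshold; the adjusted p in edgeR was also 0.152. DESeq2 gave -2.11 with an adjusted p of 1.26e-06. No fit with a library left out brought the adjusted p of limma under 0.05. Beside mmp13a, whose log2 fold change was 0.15, the 2 paralogs thus had unlike values in the same libraries, but the difference between them was not tested.

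mmp17b, a gene of the membrane-anchored group, had 203, 158 and 233 normalized counts in shoc2 KO against 351, 301 and 324 in WT, a log2 fold change of -0.73 (SE 0.197; adjusted p = 0.520 in limma). The gene listed as MMP17 had 123, 93.4 and 103 in shoc2 KO against 124, 156 and 131 in WT, and a log2 fold change of -0.37 (adjusted p = 0.945 in limma). It was singled out only because its values did not overlap. mmp30, the nearest metalloproteinase gene to mmp13a in the RefSeq gene table (assembly GRCz12tu, 1 protein-coding gene between them), was singled out for that position. It had 219, 529 and 222 normalized counts in shoc2 KO and 339, 699 and 411 in WT. Replicate 2 was the highest library of each group, and the gene did not pass the test (log2 fold change -0.64, limma adjusted p = 0.938). The log2 fold change was -1.06 without shoc2 KO replicate 2 (limma adjusted p = 0.855) and -0.34 without WT replicate 2 (limma adjusted p = 0.970). The unadjusted p of mmp30 in limma was 0.124 with all libraries and 0.00818 without shoc2 KO replicate 2. With a block for the replicate number it was 0.0147 (limma adjusted p = 0.966). The 5 genes that failed the filter, MMP19, mmp20a, mmp20b, MMP21 and mmp25a, had at most 19.0 normalized counts in any library.

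**Figure D4:**
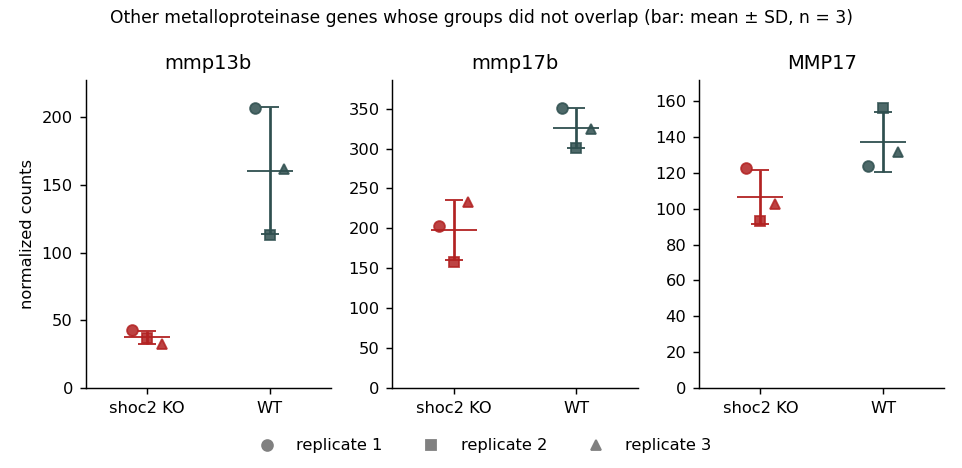
Normalized counts (vertical axis, from 0) of mmp13b, mmp17b and MMP17 in each shoc2 KO and WT library; symbols mark the replicate number and bars the mean ± SD of 3 libraries. All 3 mutant values lie below all 3 WT values in each panel, with the widest gap for mmp13b (at most 42.5 in shoc2 KO, at least 113 in WT) and the narrowest for MMP17 (123 against 124 at the nearest).

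Inhibitors of the proteases did not pass the test either. Of 7 inhibitor genes tested, limma gave 0 an adjusted p under 0.05 and 0 an unadjusted one under 0.05. Over all genes tested these shares were 0.00489% and 5.8%, and for 7 genes a count of 0 cannot be told apart from them. The median log2 fold change of the inhibitor genes was 0.08, beside 0.0078 over all genes tested. The genes listed as TIMP2, a secreted inhibitor that in mammals also takes part in MMP2 activation, had log2 fold changes of 0.08 (ENSDARG00000061226) and 0.13 (ENSDARG00000075261). For 1 inhibitor gene, RECK, the unadjusted p with all libraries was 0.0503 in limma, 0.0384 in edgeR and 0.0406 in DESeq2. Without WT replicate 3 it was 0.00963 in limma. RECK, a membrane-anchored inhibitor of metalloproteinases, had 5064, 4402 and 5056 normalized counts in shoc2 KO against 6129, 7397 and 5077 in WT. The groups just failed to overlap, with WT replicate 3 close to the mutants. Of all genes tested, 5.28% were lower in shoc2 KO without overlap. The log2 fold change of RECK was -0.34 (SE 0.152, adjusted p = 0.857 in limma). The next gene by p, a2ml, named for alpha-2-macroglobulin, a broad protease trap of blood plasma, had at most 27.7 normalized counts in any library and an adjusted p of 0.960 in limma.

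Adamalysins are related proteases that shed cell surface proteins (ADAMs) or process matrix (ADAMTSs). Of 19 tested, 0 had an adjusted p under 0.05 in limma and 1 an unadjusted p under 0.05, a share near the 5.8% of all genes tested, and the median log2 fold change was -0.09. In limma on the deposited values, genes lower in shoc2 KO at an unadjusted p under 0.05 numbered 0 with all libraries and 3 without WT replicate 1. The 1 higher gene lost this p without shoc2 KO replicate 2 or WT replicate 2. The gene with that p was ADAMTS3, whose product trims procollagen, with 790, 1114 and 817 normalized counts in shoc2 KO against 702, 573 and 624 in WT (log2 fold change 0.51, SE 0.17; limma adjusted p = 0.706). Every mutant library was above every WT library for this 1 gene of the 19, a share near the 5.29% of all genes tested. adam19a followed, with 537, 372 and 479 in shoc2 KO and 497, 804 and 628 in WT, values that overlapped (limma adjusted p = 0.865). Its unadjusted p with all libraries was 0.0584 in limma, 0.0448 in edgeR and 0.0420 in DESeq2, lower in shoc2 KO in each.

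Matrix genes whose products the proteases can cut lay on both sides of their WT level. Of 16 tested, 0 had an adjusted p under 0.05 in limma, 4 were higher and 3 lower at an unadjusted p under 0.05, and the median log2 fold change was -0.02. Of all genes tested, 2.88% were higher and 2.91% lower at this level. Without shoc2 KO replicate 2 the 3 lower genes became 2. The gene listed as COL2A1 under ENSDARG00000069093, the main collagen of cartilage, had 287056, 373858 and 314164 normalized counts in shoc2 KO against 198299, 130639 and 183504 in WT. Its groups did not overlap, and its log2 fold change of 0.94 had an adjusted p of 0.336 in limma and 0.00392 in DESeq2. COL4A2, a basement membrane collagen, had 5886, 4879 and 6178 in shoc2 KO against 7353, 8346 and 7654 in WT, and a log2 fold change of -0.47 (SE 0.127; limma adjusted p = 0.520). Its partner chain COL4A1, singled out after its values were seen, had a log2 fold change of -0.44 (limma adjusted p = 0.580). Of the cartilage and bone markers, 9 of 9 had a positive log2 fold change, with a median of 0.41 beside 0.0078 over all genes tested. An adjusted p under 0.05 was reached by 0 of them in limma. In DESeq2 it was reached by 2, COL2A1 (ENSDARG00000069093) among them, where 0.757% of all genes tested reached it. Values were higher without overlap for 5 of the 9, against 5.29% of all genes tested. The pair listed as COL2A1 made up between 82.2% and 85.4% of the sum of this list. The other 7 genes summed to between 60168 and 78086 normalized counts in shoc2 KO and between 38807 and 49547 in WT. The part of cell makeup in these matrix values was not tested.

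Transcription factors of the AP-1 and ETS families bind promoters of metalloproteinase genes in mammals, and several are targets of ERK. Of 13 genes tested in this list, 0 had an adjusted p under 0.05 in limma, and 5 were lower and 0 higher in shoc2 KO at an unadjusted p under 0.05, where 2.91% of all genes tested were lower and 2.88% higher. Without WT replicate 3 the 5 became 3. Values did not overlap and were lower in shoc2 KO for 5 of the 13 (FOSB, both genes listed as JUNB, JUND and ETS1), where 5.28% of all genes tested did so. The median log2 fold change was -0.46, beside 0.0078 over all genes. JUNB under ENSDARG00000074378 had 42164, 37626 and 36042 normalized counts in shoc2 KO against 56637, 55863 and 65715 in WT, with a log2 fold change of -0.62 (SE 0.13; adjusted p = 0.342 in limma and 0.00683 in DESeq2).

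FOSB had 13979, 14486 and 10290.5 normalized counts in shoc2 KO against 21784, 20990 and 39703 in WT, with a log2 fold change of -1.04 (SE 0.248; adjusted p = 0.405 in limma and 0.0116 in DESeq2). WT replicate 3, the highest library for FOSB, also had the highest leukocyte sum. Without that library the log2 fold change of FOSB was -0.74 (limma unadjusted p = 0.00236, limma adjusted p = 0.869). The part of leukocytes in the FOSB values was not tested. Of the list's other genes, 5 known to respond to ERK were singled out for that role. This choice does not set FOSB, JUNB or the rest of the list apart from ERK. Log2 fold changes were -0.31 for ETV4, 0.18 for etv5a and -0.08 for etv5b, all ETS factors, -0.60 for FOSL1, an AP-1 subunit, and 0.01 for DUSP6, a phosphatase that switches ERK off. None of these 5 had an unadjusted p under 0.05 in limma. FOSB and this JUNB gene did not overlap between the groups, so all 3 mutant libraries lay below the lowest WT value of each. Any tie of these genes to mmp9 or mmp13a was not tested. The summed level of the list was 237390, 240886 and 201423 normalized counts in shoc2 KO and 307156, 291547 and 376370 in WT.

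**Figure D5:**
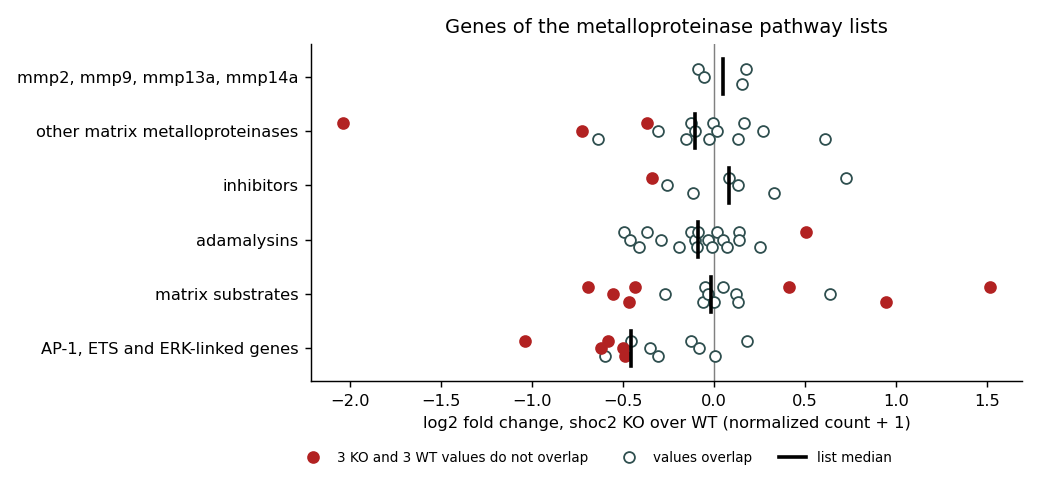
Log2 fold change (horizontal axis, shoc2 KO over WT, on normalized count + 1) of each tested gene, for mmp2, mmp9, mmp13a and mmp14a and for the 5 lists. Filled points are genes whose 3 shoc2 KO and 3 WT values do not overlap, and black bars are medians; the 4 genes lie between -0.09 and 0.18, mmp13b lies farthest left at -2.04, and the median of the AP-1, ETS and ERK-linked list is -0.46.

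Over the 5 lists together, 70 genes were tested. limma and edgeR each called 0 of them at an adjusted p under 0.05. At an unadjusted p under 0.05 there were 15 in limma (5 higher and 10 lower in shoc2 KO) and 18 in edgeR (5 higher and 13 lower). All genes tested gave 5.8% and 6.02%. The lists were chosen with earlier results of these data known, so these counts are descriptions and no test of the lists. DESeq2, which called 0.757% of all genes tested, called 5 of the 70: mmp13b, COL2A1 (ENSDARG00000069093), acana, FOSB and JUNB (ENSDARG00000074378). acana, the gene of the cartilage proteoglycan aggrecan, is named here only as 1 of these 5; it had 8988, 21073 and 13763 normalized counts in shoc2 KO against 7865, 2494 and 5674 in WT.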

How the data were processed

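The authors deposited 1 table of normalized counts (a signal unit) for 6 libraries, named as HTSeq normalized counts. The submitters' processing notes name FastQC 0.11.7, STAR 2.6, Cuffnorm and build GRCz11; the normalization method, annotation and strand setting are not given in the sources used here, so reads shared between paralogs could not be set apart. In each column, 100% of the 27726 deposited signal values were whole multiples of 1 step (within 0.0001 reads), which gave back whole reads.

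Values were transformed to log2(normalized count + 1). The 20463 genes with at least 10 normalized counts in at least 3 libraries were tested with limma 3.58.1 (R 4.3.3, mean-variance trend, no covariates) with Benjamini-Hochberg adjustment over all of them. Fold changes on this scale understate changes of low genes. For each gene limma takes 1 variance for both groups and draws it toward the trend over all genes tested. Its SE, intervals and p-values therefore do not rest on the spread of that gene alone. edgeR 4.0.16 (quasi-likelihood) and DESeq2 1.42.0 on recovered reads were alternatives. limma was also run on simulated counts. The changes simulated were larger than those of the 4 genes, so that run does not bear on changes as small as theirs. The name table paired 25324 identifiers with symbols. Where a listed symbol had no entry, its paralog ending was dropped, so human-style symbols can name several genes. Of 113 symbols, 5 found none: timp3, adamts2, elna, fosab and mpx. These are absent from the inhibitor, adamalysin, matrix, AP-1 and neutrophil lists. Groups come from the source name in the labels. Members and lists were chosen with earlier results of these data known. From each list, genes past the threshold were named, or else the 2 with the smallest p. No sequence of the 4 genes was used here, and coordinates are not given because the reference table is of another build.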

Additional observations from a re-analysis of the deposited data

How the results depend on the processing

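For the 4 metalloproteinase genes, 16 alternatives each gave 0 adjusted p-values under 0.05 in limma, edgeR or DESeq2, and the lowest was 0.798. The log2 fold change of mmp2 stayed between 0.11 and 0.22. That of mmp9 turned to 0.072 in edgeR and 0.075 in DESeq2, and ran from -0.55 to 0.31 with 1 library left out. mmp13a ran from -0.35 to 0.62 and mmp14a from -0.10 to 0.038 with 1 library left out, the sign of mmp14a turning without shoc2 KO replicate 2. The number of genes called in the whole table was 1 in limma, 3 without the filter, 0 without the variance trend (1227 at an unadjusted p under 0.05), 0 in edgeR (1232 unadjusted), 155 in DESeq2 (47 higher in shoc2 KO), 0 with a block for the replicate number (906 unadjusted), and from 0 to 4 with 1 library left out (900 to 1516 unadjusted). DESeq2 called 5 of the 70 listed genes, and every other setting called 0. The causes were not tested. Ratios kept their sign, from -0.32 to -0.16 for mmp14a to mmp2 and from 0.09 to 0.45 for mmp13a to mmp9. Same-numbered libraries did not deviate together (correlations of -0.20, -0.03 and -0.09 across genes), so equal numbers were not taken as pairs, and the replicate block changed no call of the 4 genes. The lowest-read of the 4 genes, mmp13a, had 220 to 807 reads per library.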
